A study of Rattus norvegicus with 9 samples.

Results

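The 10 transcripts with the most reads in the cerebral cortex of these rats were followed through 9 RNA-seq libraries, and their part of the reads was about 2-fold larger after ischemia and reperfusion. They were chosen as the 10 transcripts, of 44059 counted, with the largest sum of raw counts over all libraries, and they are called here by their rank in that sum. All 10 carry a rat Ensembl identifier, and none is among the 3251 predicted lncRNA. The file does not pair identifiers with gene names, and 0 of its 40808 Ensembl identifiers were found in the RefSeq gene table used here (assembly GRCr8), so the transcripts are not named, and neither their sequence, length and position nor the cell types of the tissue were analysed here. The transcript ranked 1 is ENSRNOT00000050156.

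RNA came from the cortex at the infarct site of male Sprague-Dawley rats aged 7 to 8 weeks, with 3 rats in each of 3 groups and 1 library a rat. Sham rats received saline and had their neck vessels separated, but no wire was inserted. The I/R rats received saline and 2 h of tMCAO, a stroke model in which the middle cerebral artery is blocked by a wire that is later withdrawn to let blood return. The I/R + DEX rats were given DEX, an α2 adrenergic agonist used for sedation, at 50 μg/kg and 30 min before the same occlusion. All 9 rats were killed 24 h after tMCAO. The model removes blood flow from the territory of 1 artery, so a sample can hold dying, surviving and invading cells in unknown proportions, and fewer cells of a type cannot be told apart from less RNA per cell.

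Libraries of this kind are made from total RNA after removal of ribosomal RNA, so they keep RNA with and without a poly(A) tail. In such libraries of brain, a few kinds of RNA are known to take many reads: transcripts of the mitochondrial genome, which encode subunits of the respiratory chain and ATP synthase, structural RNA such as 7SK and 7SL, lncRNA retained in the nucleus, and mRNA of synaptic and myelin proteins. Which of these the 10 transcripts belong to was not analysed here. The reads of a library are also a fixed sum, so that when 1 transcript takes a larger share the shares of others must fall even if their RNA does not change.

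Library totals ranged from 21691473 to 28600541 counts in Sham and from 32479042 to 35092422 in I/R. The I/R + DEX libraries held 31234956 to 36039743 counts. At this depth the counting error of a share was small, with a 95% Wilson interval of at most 0.0106 percentage points to each side over all shares given here, and it covers counting error only. Shares are percentages of all counts of a library and are not divided by transcript length, so the ranks order reads and not molecules. I/R + DEX replicate 3 stood apart from the other libraries. In that library 596 transcripts held 50% of the counts, against 867 to 1365 in the others, its predicted lncRNA took 4.91% of the counts against 5.90% to 12.7%, and its TMM scaling factor of 0.8684 was the lowest, the others lying between 0.9589 and 1.068. The main differences that involve I/R + DEX are therefore also given without it.

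Together the 10 transcripts took 6.42%, 6.23% and 6.41% of the counts in Sham replicates 1, 2 and 3. In I/R they took 10.98%, 17.6% and 11.9%. After DEX and occlusion the figures were 7.67%, 13.7% and 22.2%. Every library after occlusion lay above every Sham library, while the I/R + DEX libraries reached both below and above those of I/R. The group means were 6.35% ± 0.107 for Sham, 13.5% ± 3.58 for I/R and 14.5% ± 7.30 for I/R + DEX (SD over 3 rats).

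**Figure D1:**
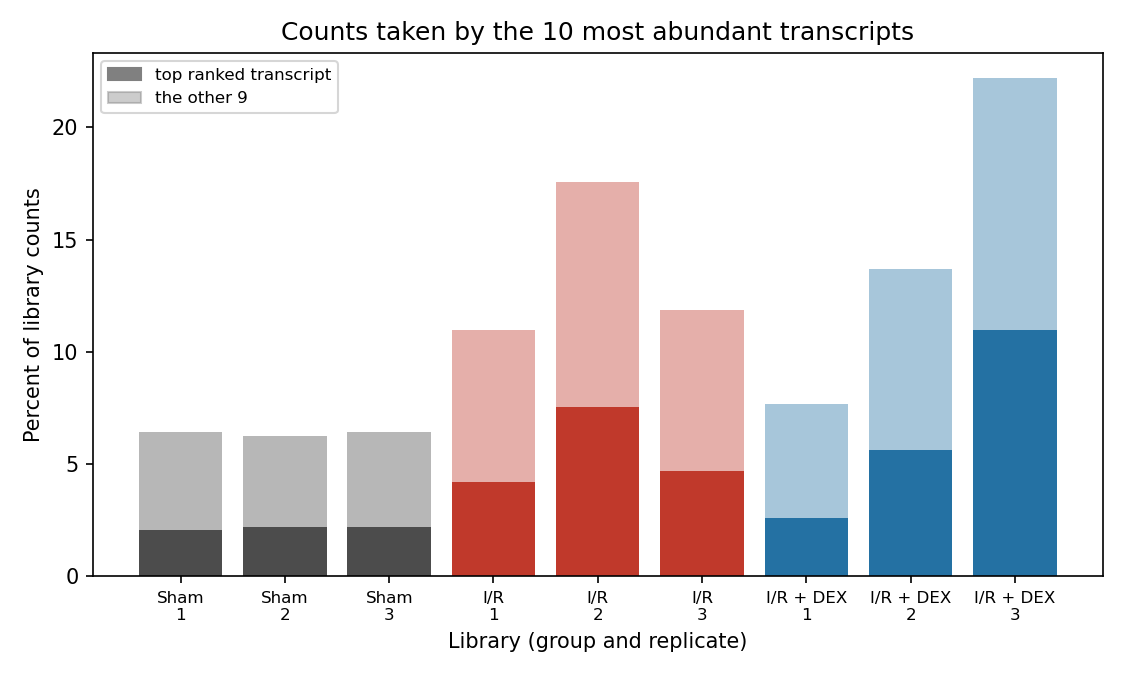
Percent of the counts of each library (vertical axis) taken by the top ranked transcript (dark) and by the other 9 of the 10 most abundant transcripts (light), 1 bar a library. The 3 Sham bars stand between 6.23% and 6.42%, while the bars after occlusion run from 7.67% to 22.2% and differ widely within each group.

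The mean summed share was 2.12-fold higher in I/R than in Sham and 2.28-fold higher in I/R + DEX than in Sham. Each of these differences had p = 0.1 in a 2-sided exact permutation test (adjusted p = 0.15 over 3 comparisons), which no comparison of 3 rats with 3 can go below. The means of I/R + DEX and I/R differed by 1.04 percentage points, which is less than the SD of either group (p = 0.8 in the same exact permutation test, adjusted p = 0.8). The difference between I/R and Sham was 7.12 percentage points with all libraries, 5.07 without I/R replicate 2 and 8.37 without I/R replicate 1. The difference between I/R + DEX and Sham was 8.16 percentage points with all libraries and 4.32 without I/R + DEX replicate 3. That between I/R + DEX and I/R changed sign without I/R + DEX replicate 3, when it was -2.80 percentage points, and without I/R replicate 1, when it was -0.209.

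The transcript ranked 1 was the most counted of all in each of the 9 libraries. It took 2.04%, 2.18% and 2.19% of the counts in Sham, 4.197%, 7.55% and 4.71% in I/R, and 2.60%, 5.63% and 10.98% in I/R + DEX, replicates in order. Its lowest share after occlusion, in I/R + DEX replicate 1, was still above its highest in Sham. It also took more of what the 10 took together, 33.6% ± 1.66 for Sham, 40.3% ± 2.42 for I/R and 41.5% ± 7.79 for I/R + DEX (SD, n = 3). The other 9 summed to 4.22% ± 0.164, 7.99% ± 1.78 and 8.11% ± 3.08 of the counts in the same order, so the difference between Sham and the groups after occlusion was not that of rank 1 alone.

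The transcript ranked 2 differed least between groups. Its share was 1.04%, 1.09% and 1.11% in Sham, 1.32%, 1.35% and 1.24% in I/R, and 1.36%, 1.19% and 0.912% in I/R + DEX. It was at place 2 in 8 libraries and at place 10 in I/R + DEX replicate 3, the only library in which its share was below those of Sham.

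The transcripts ranked 3 and 4, ENSRNOT00000082705 and ENSRNOT00000088597, had nearly the same counts in every library. The transcript ranked 3 took 0.514%, 0.441% and 0.394% of the counts in Sham, 0.908%, 1.20% and 0.975% in I/R, and 0.678%, 1.02% and 1.23% in I/R + DEX. The transcript ranked 4 had 99.8%, 99.7% and 99.9% of the counts of the transcript ranked 3 in Sham, 98.5%, 98.4% and 98.9% in I/R, and 98.2%, 98.6% and 99.0% in I/R + DEX. The difference was 157 to 349 counts in the Sham libraries and 3616 to 6626 in the libraries after occlusion. Over the 9 libraries the SD of the log2 ratio of this pair was 0.0094, the smallest of the 45 pairs among the 10 transcripts, while the next smallest was 0.0812, for ranks 1 and 6, and the median was 0.36. The sources used here do not state how reads shared by transcripts were divided, so these 2 transcripts may not be separate measurements and are also counted as 1 below.

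The transcripts ranked 5, 6 and 7 had large shares in I/R + DEX replicate 3. The transcript ranked 5 took 0.467%, 0.440% and 0.423% of the counts in Sham, 0.677%, 1.28% and 0.840% in I/R, and 0.498%, 0.986% and 1.43% in I/R + DEX. The transcript ranked 6 took 0.352%, 0.328% and 0.341% in Sham, 0.621%, 1.12% and 0.695% in I/R, and 0.406%, 0.821% and 1.56% in I/R + DEX. The transcript ranked 7 took 0.284%, 0.237% and 0.305% in Sham, 0.649%, 1.09% and 0.665% in I/R, and 0.317%, 0.873% and 1.70% in I/R + DEX. For all 3 transcripts every library after occlusion was above every Sham library. Of all transcripts tested below, 30.3% had I/R wholly above Sham after scaling, and 24% had I/R + DEX wholly above Sham. The share with both was not computed. The transcript ranked 7 moved furthest in the order of the library, from place 14 to 17 in Sham to place 7 or 8 in I/R, and to places 14, 6 and 2 in I/R + DEX replicates 1, 2 and 3.

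The transcript ranked 8 was the only one of ranks 3 to 10 whose highest share was in an I/R library. It took 0.401%, 0.356% and 0.391% of the counts in Sham, 0.789%, 1.11% and 0.732% in I/R, and 0.415%, 0.598% and 0.907% in I/R + DEX. Ranks 9 and 10 were less apart from Sham. The transcript ranked 9 took 0.439%, 0.416% and 0.474% in Sham, 0.446%, 0.840% and 0.517% in I/R, and 0.406%, 0.831% and 1.17% in I/R + DEX. The transcript ranked 10 took 0.372%, 0.310% and 0.378% in Sham, 0.468%, 0.870% and 0.541% in I/R, and 0.327%, 0.718% and 1.10% in I/R + DEX. For both, I/R + DEX replicate 1 lay within or below the Sham libraries, and for rank 9 so did I/R replicate 1.

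**Figure D2:**
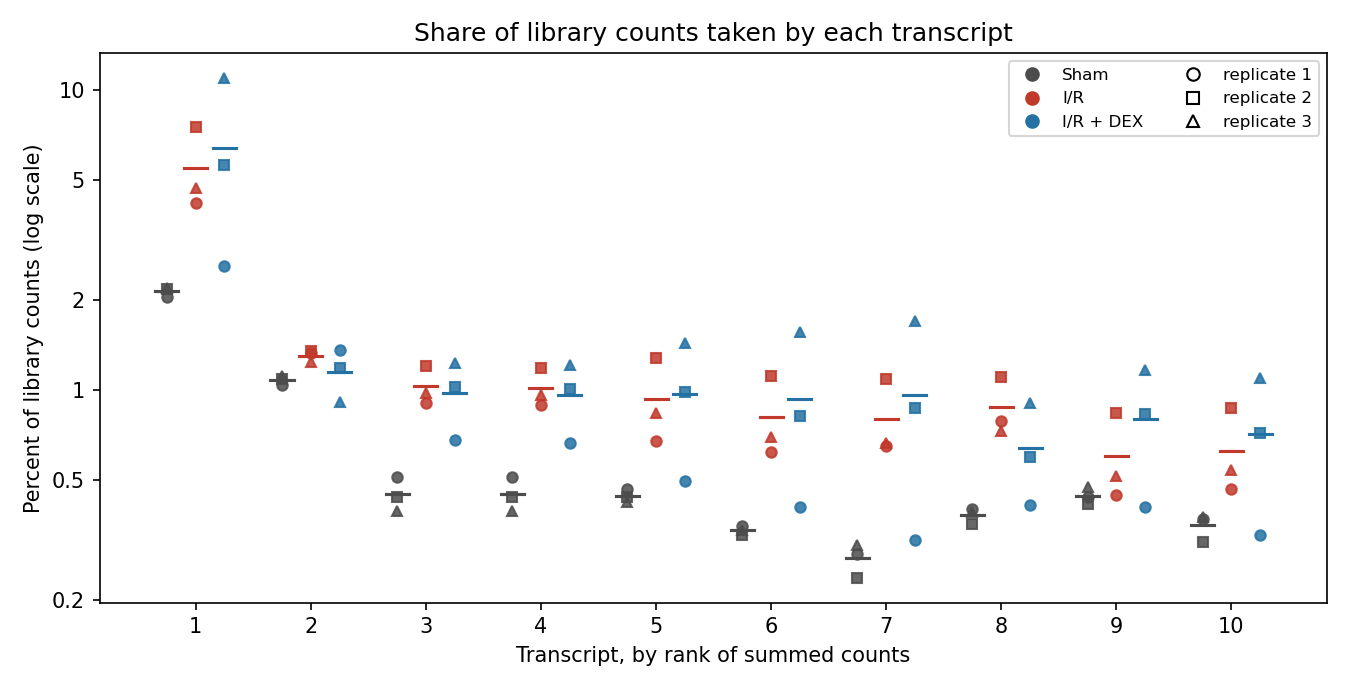
Percent of library counts on a log axis for each of the 10 transcripts, by rank of summed counts, with 1 point a library and a bar at the mean of each group of 3. Sham points lie close together at each rank, and the points after occlusion spread from 0.317% to 1.70% at rank 7.

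The limit of the choice fell at a larger step in the counts than those between the ranks next to it. The transcripts ranked 9 and 10 had 1773335 and 1641512 counts in all, and those ranked 11, 12 and 13, just outside, had 1371971, 1348319 and 1317816. The transcript ranked 13 is a predicted lncRNA. Ranking by the mean CPM, counts scaled to a common library total, over the 9 libraries gave the same 10 transcripts, and ranking by the Sham libraries alone, an alternative chosen after seeing the data, kept 7 of them and lost those ranked 6, 7 and 10.

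To compare the groups, each pair was fitted with edgeR's quasi-likelihood test over all transcripts that passed its low-count filter, after TMM scaling, and p-values were adjusted by the Benjamini-Hochberg method over all of them. All 10 transcripts passed the filter in each comparison. The sum that chose them used no comparison, but 6 of its 9 libraries were taken after occlusion and had larger totals, so a transcript that takes more reads there entered more easily. For this reason the choice partly set the count of transcripts that were higher than in Sham and the median of their fold changes. It also partly set the difference in their summed share and the p-values of the comparisons with Sham.

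In I/R against Sham, 7 of the 10 transcripts were upregulated at an adjusted p under 0.05, against 22.4% of all 25777 transcripts tested that were upregulated at this threshold. The median log2 fold change was 1.19 for the 10, 0.78 for the 10 chosen from Sham alone and 0.03 for all tested. The transcript ranked 7 changed most, at a log2 fold change of 1.56 ± 0.29 (SE, adjusted p = 0.00728), and that ranked 1 had 1.38 (standard error 0.33, adjusted p = 0.0172). The transcripts ranked 3 and 4 had 1.20 and 1.19 (standard error 0.22 for each, adjusted p = 0.00662 and 0.00684). Those ranked 5, 6 and 8 were at 1.09 (adjusted p = 0.0263), 1.27 (adjusted p = 0.0142) and 1.21 (adjusted p = 0.00845). With ranks 3 and 4 counted as 1, 6 of 9 were upregulated.

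The other 3 did not pass. The transcript ranked 2 had a log2 fold change of 0.27 (95% interval -0.13 to 0.67, adjusted p = 0.23), that ranked 9 had 0.46 (95% interval -0.25 to 1.18, adjusted p = 0.25), and that ranked 10 had 0.85 (95% interval 0.13 to 1.57, adjusted p = 0.061). At the cutoff of the study, which asks for |log2 fold change| over 0.8 and an unadjusted p under 0.05, the transcript ranked 10 passed as well, which made 8 of 10, against 18.7% of all tested upregulated at this cutoff. For 9 of 10 the scaled values of the I/R libraries all lay above those of Sham, as they did for 30.3% of all tested, and the exception was rank 9.

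The calls at an adjusted p under 0.05 changed in number when a library was left out. They numbered 5, 4 and 4 without Sham replicates 1, 2 and 3, 8 without I/R replicate 1 and 7 without I/R replicate 2 or 3. The transcripts ranked 3, 4, 7 and 8 passed with each of the 6 libraries left out in turn. For rank 1 the log2 fold change was 1.02 without I/R replicate 2 and 1.57 without I/R replicate 1. With all 9 libraries in one fit, 3 passed. The share of all transcripts that passed was not computed for these other fits. Of the 10 transcripts chosen from Sham alone, 5 passed.

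In I/R + DEX against I/R, none of the 10 passed (0 of 10), with edgeR's quasi-likelihood test, DESeq2's Wald test or limma-voom, at an adjusted p under 0.05. The unadjusted p was under 0.05 for 0 of 10 in the edgeR test and lay between 0.334 and 0.9. Over all 25860 transcripts tested, 0% were upregulated at an adjusted p under 0.05 and 1.16% at the cutoff of the study, which 0 of the 10 passed. The groups overlapped for every one of the 10, whereas I/R + DEX lay wholly above I/R for 4.07% of all tested.

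The log2 fold changes of the 10 in this comparison ran from -0.32 for rank 8 to 0.55 for rank 9, with a median of 0.26 beside 0.01 for all tested. For the 10 chosen from Sham alone the median was 0.05. Their intervals were wide. For rank 1 the log2 fold change was 0.37 with a 95% interval from -1.31 to 2.05, and for rank 7 it was 0.42 from -1.20 to 2.03, so neither a 2-fold fall nor a rise of the size seen between I/R and Sham was outside what these 6 libraries allow. The narrowest interval was that of rank 2, a log2 fold change of -0.09 from -0.76 to 0.59. Without I/R + DEX replicate 3 the log2 fold changes of ranks 1, 3, 4, 5, 6, 7 and 10 turned negative, with -0.37 for rank 1 and -0.38 for rank 7, and that of rank 2 turned from negative to 0.0024, none of them past the threshold.

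Against Sham, 0 of the 10 passed for I/R + DEX at an adjusted p under 0.05 in the edgeR test, against 11.7% of all 25283 transcripts tested that were upregulated. Yet 7 passed with DESeq2's Wald test and 6 with limma-voom, for which the share of all transcripts that passed was not computed. At the cutoff of the study 6 passed in the edgeR test, ranks 1, 3, 4, 5, 6 and 7, against 14.3% of all tested upregulated at this cutoff, and all 6 were higher in I/R + DEX. The scaled values of I/R + DEX lay wholly above those of Sham for 7 of 10, ranks 1 and 3 to 8, and for 24% of all tested.

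The log2 fold changes in this comparison ran from 0.18 to 1.98, with a median of 1.24 beside 0.02 for all tested, and the median was 0.94 for the 10 chosen from Sham alone. The transcript ranked 7 had 1.98 (standard error 0.66, adjusted p = 0.0806), that ranked 1 had 1.75 (standard error 0.67, adjusted p = 0.113), and that ranked 3 had 1.25 (standard error 0.36, adjusted p = 0.0566). The transcript ranked 2 had 0.18 (95% interval -0.47 to 0.83, adjusted p = 0.662). The size of the higher values rested on I/R + DEX replicate 3, since without it the log2 fold change was 1.18 for rank 7, 1.01 for rank 1 and 0.97 for rank 3. Without I/R + DEX replicate 1 the same 3 transcripts had 2.41, 2.14 and 1.49. Both comparisons with Sham use the same 3 Sham libraries. The count of calls changed with the library left out. At an adjusted p under 0.05, 9 of 10 passed without I/R + DEX replicate 1, 0 without replicate 2 and 2, ranks 3 and 4, without replicate 3. At the cutoff of the study the count was 2, 2 and 0 without Sham replicates 1, 2 and 3, and 9, 4 and 5 without I/R + DEX replicates 1, 2 and 3. No share of all transcripts was computed for the fits with a library left out.

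**Figure D3:**
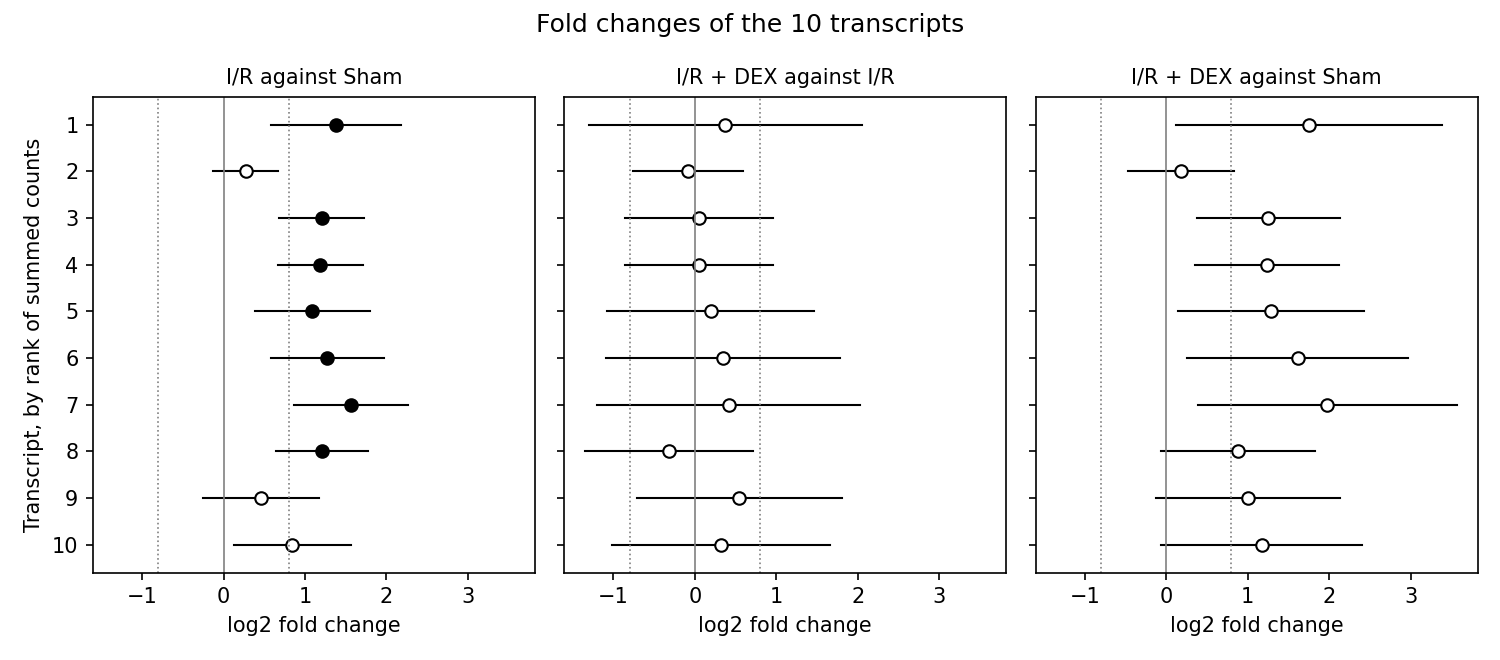
Log2 fold change (horizontal axis) of each of the 10 transcripts (vertical axis, by rank) in 3 comparisons, with 95% intervals from the edgeR fit, filled points at an adjusted p under 0.05 and dotted lines at the fold change cutoff of the study, 0.8 either way. The 7 filled points are all in I/R against Sham, and the intervals of I/R + DEX against I/R all cross 0.

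The spread between rats differed in size from group to group. The coefficient of variation (CV, the SD divided by the mean) of a transcript's share was lowest for Sham and highest for I/R + DEX for each of the 10. Its median over the 10 was 6.40% for Sham, 32.1% for I/R and 47.9% for I/R + DEX. Among the 90 transcripts of ranks 11 to 100 the medians were 5.44%, 16.8% and 29.7% in the same order, so those also spread more after occlusion. A choice by summed counts favours transcripts with very large shares in single libraries, so the wider spread of the 10 can be partly set by it. The difference in spread between groups was not tested, and the 10 share their libraries and are not separate observations of it.

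The transcript ranked 2 spread least in each group, with a CV of 3.39% for Sham, 4.45% for I/R and 19.5% for I/R + DEX. The transcripts ranked 3 and 4 spread most in Sham, with 13.5% and 13.4%, but had only 14.9% and 14.8% in I/R. The transcript ranked 9 spread most in I/R with 35.0%, and that ranked 7 in I/R + DEX with 72.2%, where its highest share was 5.36 times its lowest. For rank 1 the CV was 3.93%, 33.0% and 66.3% in the 3 groups in the same order.

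The biological coefficient of variation of the edgeR fit estimates the spread between rats beyond counting error. It is 1 value a transcript for both groups of a comparison, although the spread differed between groups. It sets the 10 beside the whole table. The choice by summed counts bears on this comparison as well. In I/R against Sham its median was 0.254 for the 10, 0.270 for all transcripts tested and 0.187 for the 100 most abundant, which include the 10. For I/R + DEX against I/R the medians were 0.432, 0.341 and 0.288. There the value of rank 7 stood at percentile 85.1 of all tested and that of rank 1 at 81.7, while that of rank 2 stood at 6.9.

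Within a group the 10 mostly rose and fell together. In I/R replicate 2 the shares of all 10 were above the mean of their group, in I/R replicate 3 those of all 10 were below it, and in I/R replicate 1 those of 9, the exception being rank 2. Of the shares in I/R + DEX replicate 1, 9 were below the mean of their group and in replicate 3, 9 were above it, and the exception in both was again rank 2. For I/R + DEX replicate 2, 6 were above and 4 below. The Sham libraries showed less of this, with 7, 2 and 7 of 10 above the mean in replicates 1, 2 and 3 and with small deviations. Deviations from a group mean balance out, so a library far above it puts others below. The choice by summed counts favours transcripts with very large shares in single libraries, so this pattern can be partly set by it. Ranks 3 and 4 are counted apart here. How many other transcripts lay on the same side was not computed, but ranks 11 to 100 together also took most in I/R replicate 2 (12.9%) and I/R + DEX replicate 3 (13.7%) of their groups.

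**Figure D4:**
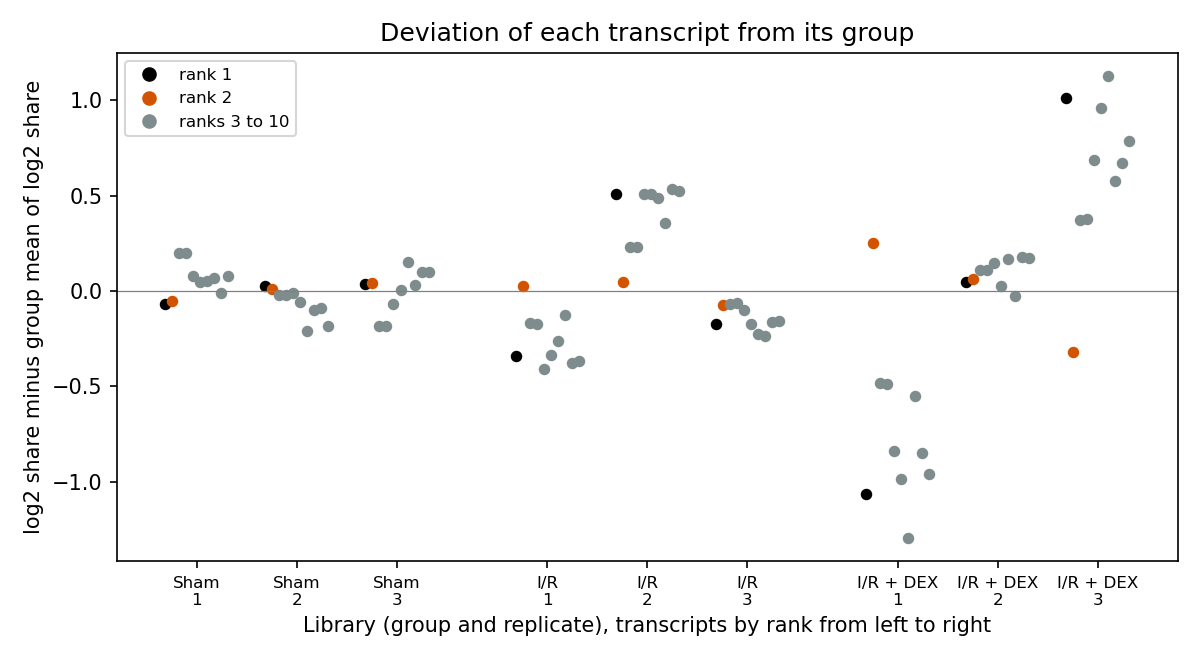
Log2 share of each transcript minus the mean log2 share of its group (vertical axis), in each of the 9 libraries, with the 10 transcripts side by side in order of rank. The 9 transcripts other than rank 2 lie below their group in I/R + DEX replicate 1 and above it in I/R + DEX replicate 3, and rank 2 lies on the opposite side in both.

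Since shares of a library have a common total, the counts of the other 9 were also set against those of rank 1 in the same library, which needs no scaling. The transcript ranked 6 kept the closest ratio, with 15.95% ± 1.14 of the counts of rank 1 for Sham, 14.8% ± 0.0229 for I/R and 14.8% ± 0.721 for I/R + DEX (SD, n = 3). The transcript ranked 7 had 12.9% ± 1.75, 14.7% ± 0.701 and 14.4% ± 1.91. The means of these ratios lay within 1.80 percentage points of each other between Sham and I/R, with I/R just below Sham for rank 6 and just above it for rank 7, while the mean shares of both in I/R were more than 2-fold those of Sham.

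The mean ratio to rank 1 was most below that of Sham, in I/R, for ranks 2, 9 and 10. The transcript ranked 2 had 50.6% ± 0.564 of the counts of rank 1 for Sham, 25.2% ± 6.94 for I/R and 27.2% ± 22.5 for I/R + DEX, where it ranged from 8.30% in replicate 3 to 52.2% in replicate 1. The transcript ranked 9 had 20.7% ± 1.42 for Sham, 10.9% ± 0.256 for I/R and 13.7% ± 2.67 for I/R + DEX. The transcript ranked 10 had 16.6% ± 2.06, 11.4% ± 0.208 and 11.8% ± 1.55. For each of these 3 the I/R libraries lay wholly below those of Sham. So they did for rank 5, which had 20.8% ± 1.89, 17.0% ± 0.853 and 16.6% ± 3.15 of the counts of rank 1 in the 3 groups in the same order, and for rank 6. For rank 7 the I/R libraries lay wholly above those of Sham, and for ranks 3, 4 and 8 the I/R and Sham libraries overlapped. Rank 1 was itself higher in I/R, so any transcript that rose less has a lower ratio to it. How many of all transcripts have such ratios was not computed. The 10 were therefore not in 1 fixed ratio across the groups, and these ratios were compared without a test.

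Outside the 10, the transcript whose pattern over the 9 libraries was most like that of their summed share was the one ranked 12, an Ensembl transcript. Its log2 CPM differed from the pattern of the sum by 0.0902 on average, each being centred on its own mean, against a median of 0.665 over the 12796 transcripts compared. It had on average 2517 CPM for Sham, 5486 for I/R and 5814 for I/R + DEX. The 2 next in likeness differed by 0.113 and 0.125 and are of ranks 12485 and 212, so a pattern of this kind was also met at low counts. Among the 10 themselves, the distance was smallest for rank 5, at 0.0787, and largest for rank 2, at 0.559.

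Other measures of the libraries went with the summed share where it was largest, but not throughout. Predicted lncRNA took 12.2% ± 0.553 of the counts for Sham, 6.96% ± 0.946 for I/R and 6.44% ± 1.37 for I/R + DEX (SD, n = 3), and the libraries with the largest summed share of the 10, I/R + DEX replicate 3 and I/R replicate 2, had the smallest shares of predicted lncRNA, 4.91% and 5.90%. The same 2 libraries needed the fewest transcripts to hold 50% of the counts, 596 and 867. I/R + DEX replicate 1 and I/R replicate 1, with summed shares of 7.67% and 10.98%, needed 1365 and 1297, more than any Sham library. Predicted lncRNA took 7.53% in I/R + DEX replicate 1, within the range of I/R, although its summed share was the nearest to Sham. The part of these measures, or of RNA quality, in the shares of the 10 was not tested.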

How the data were processed

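RNA-seq of the cortex of 9 rats was analysed, 3 rats to a group, with groups taken from the library labels. The authors deposited raw counts, as whole numbers, for each transcript in each library. The submitters' processing notes name STAR 2.5.3a, StringTie 1.3.1 and the rat build rn6, without their roles, whereas the study's methods name Trimmomatic, a mouse build and CLC Genomics Workbench. How shared reads were divided is not given in the sources used here, which sets the count of any transcript that overlaps another.

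Members were the 10 transcripts with the largest summed counts, all of which are described by rank. Identifiers are printed for rank 1 and, chosen after their values were seen, for ranks 3 and 4. The members, lists and tests were chosen with earlier results of these data known. Shares were computed over all counts of a library. Each pair of groups was fitted on its 6 libraries with edgeR 4.0.16 (R 4.3.3), TMM scaling, filterByExpr at its defaults (a count of 10, a total of 15) and the quasi-likelihood test, with Benjamini-Hochberg adjustment over all transcripts. Standard errors come from dividing a log2 fold change by its root F statistic. Summed shares were compared by exact permutation tests (SciPy 1.17.1). The pattern most like the sum was sought among transcripts with a mean of at least 10 CPM, on log2(CPM + 0.5). The alternatives were RLE factors, total counts, the members left out of scaling, no filter, at least 10 counts in every library, DESeq2 1.42.0, limma-voom (limma 3.58.1), 1 fit of all 9 libraries, a replicate block, a cutoff of 1, other totals and choices of members, and leaving out each library. The fits were tested on data simulated for I/R against Sham, with the same spread for every transcript in both groups. That spread was below the median of these data, so the simulation does not show how the fits behave at theirs. The gene and marker lists prepared for the study could not be used without gene names.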

Additional observations from a re-analysis of the deposited data

How the results depend on the processing

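In I/R against Sham, 7 transcripts passed at an adjusted p under 0.05, and 3 did with all 9 libraries in one fit, 4 with the replicate block, and 4 to 8 with each library left out. At the cutoff of the study 8 passed, 5 when the 10 were chosen from Sham alone, and 6 to 8 with each library left out. In I/R + DEX against Sham 0 passed at an adjusted p, but 7 did with DESeq2, 6 with limma-voom, 3 with all 9 libraries in one fit, and 0 to 9 with each library left out. There 6 passed the cutoff of the study, 0 with the replicate block and 0 to 9 with each library left out. None (0) passed between I/R + DEX and I/R under every alternative run. The cause of these shifts was not tested, and the share of all transcripts that passed was computed for the main fit only. In I/R against Sham, 22.4% of all tested were upregulated at an adjusted p under 0.05 and 18.7% at the cutoff of the study. In I/R + DEX against Sham these shares were 11.7% and 14.3%.

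The difference in summed share kept its sign under each alternative in both comparisons with Sham, at 3.77 to 11.6 percentage points, and at 8.93 and 10.8 points as a percentage of all other counts. Between I/R + DEX and I/R it ran from -2.80 to 4.46 with each library left out.

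Of the single log2 fold changes, 15 of 150 turned in sign between I/R + DEX and I/R, and 0 of the others did. With total counts alone rank 3 had -0.075 and rank 4 -0.073. With the replicate block they had -0.0036 and -0.0031. With each library left out, rank 1 ran from -0.37 to 0.77, rank 2 from -0.15 to 0.0024, rank 3 from -0.23 to 0.30, rank 4 from -0.23 to 0.30, rank 5 from -0.28 to 0.54, rank 6 from -0.36 to 0.73, rank 7 from -0.38 to 0.85 and rank 10 from -0.21 to 0.70. The values with the opposite sign came without I/R + DEX replicate 3, and for ranks 3, 4 and 5 also without I/R replicate 1.

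The replicate block had little ground, since same-numbered libraries did not deviate together, with correlations of -0.272 to 0.0683 across transcripts. At the depth of at least 21691473 counts the counting error of these shares is below the spread between rats. With 3 rats a group, the exact permutation test cannot go below p = 0.1.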

Other observations

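The next 90 transcripts by summed counts, ranks 11 to 100, took 10.2% ± 0.258 of the counts for Sham, 12.1% ± 0.736 for I/R and 12.5% ± 1.21 for I/R + DEX (SD, n = 3), a far smaller difference than that of the 10. Of all counts, 50% were held by 1265 to 1280 transcripts in the Sham libraries, by 867 to 1297 in I/R and by 596 to 1365 in I/R + DEX, so that both the most even and the least even library was one of I/R + DEX.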
